A study of Mus musculus with 15 samples.

Results

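Integrins are the cell-surface receptors that hold epithelial cells to their matrix, and laminins are the basement membrane proteins to which several of them bind. The genes described here are the numbered integrin alpha and beta subunits (Itga, Itgb) and the laminin alpha, beta and gamma chains (Lama, Lamb, Lamc) on an Agilent 1-colour mouse array. They were found by gene name among the non-control probes. This gave 31 genes with 39 probes, of 36282 genes in all. Each gene was read from its probe with the highest mean signal. No measured difference entered these rules, but the family was chosen with earlier results of these data known.

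RNA came from LSZ2 and LSZ4, mouse cell lines labelled as non-small cell lung cancer, grown in DMEM with serum. The series concerns Siva, a p53 target gene, and compares hairpins against it with control hairpins. The hairpins shSiva1 and shSiva2 were carried in pLKO TRC2.0, the control hairpin shGFP in pLKO.1 and the control hairpin shLacZ in LL37, all delivered by virus made in 293T cells. Infected cells were held in puromycin for 3 days and harvested 2 days after plating, except that shLacZ cells had no puromycin. The labels give no genotype for the lines. There were 15 arrays in 8 groups, 2 for each line and hairpin and 1 for LSZ2 with shGFP, which makes 7 control and 8 shSiva arrays. The numbers 1 and 2 after shGFP in LSZ4 were read as replicates, which the labels do not state. Whether replicates were separate cultures is not given in the labels, and p-values here measure only the spread between these samples, which may be technical. Slide 1 carried the control hairpins and slide 2 the Siva hairpins, so slide, vector and arm cannot be told apart. On each slide the row of an array also coincides with its hairpin and the column with its line.

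An integrin is a pair of 1 alpha and 1 beta chain. The alpha chain largely sets the ligand (laminins, collagens, or proteins with an RGD sequence such as fibronectin), and the short tails of both chains carry signals across the membrane. A laminin is a cross-shaped trimer of an alpha, a beta and a gamma chain that assembles inside the cell. In epithelia, Itga6 with Itgb4 forms the receptor of the hemidesmosome and holds a laminin with Lama3 and Lamb3 chains, while Itga3 with Itgb1 also binds the laminin made of Lama5, Lamb1 and Lamc1.

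A pair of probes lies in the coding sequence of the cytoplasmic tails, through which an integrin reaches the cytoskeleton, and shows what the array reads. Both have 60 bases and are given as the files list them, with probe positions on mm9. The Itga2 probe is at chr13:115626714-115626773 on the minus strand, and its capitals mark the membrane-proximal motif that alpha tails share. The Itgb1 probe is on the plus strand and spans an intron between chr8:131250081 and chr8:131255976. Its capitals mark the 2 motifs that talin and kindlins bind.
Itga2: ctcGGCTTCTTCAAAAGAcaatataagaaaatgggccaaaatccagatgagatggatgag
Itgb1: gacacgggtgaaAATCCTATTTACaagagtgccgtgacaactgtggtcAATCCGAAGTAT

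Values are log2 of the processed signal less the 75th percentile of the same array, so 0 is the level of that percentile, and values of different genes are not compared. That percentile ran from 428 to 1029 intensity units and was lowest in the LSZ4 shGFP arrays (428 and 457). Agilent calls a spot well above background against its local background. By that call 19 of the 31 genes were detected on all 15 arrays, 6 on some and 6 on none. Of the epithelial markers, 5 of 6 were on all arrays (Cdh1, Krt8, Krt18, Krt7, Krt19) and Epcam on 14. The lung markers Nkx2-1 and Sftpc were on none, while Sftpb was on 11, Scgb1a1 on 8 and Napsa on 1. The fibroblast markers Pdgfra, Pdgfrb, Dcn and Lum were on none, Col1a1 on 5 and Col1a2 on 15. The endothelial markers Cdh5, Tek and Emcn were on none, and Pecam1 and Kdr were on all. Of the leukocyte markers, Lyz2 was on none, Cd68 was on 3, Ptprc on 8, Adgre1 on 10, and Cd3e and Cd14 were on all.

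Receptors and laminin chains typical of epithelial adhesion were detected. In RNA from whole cultures, fewer cells of a type and less RNA per cell cannot be told apart. Itga3, Itga6 and Itga7, the laminin-binding alpha chains, were detected on all 15 arrays, as were Itgb1, Itgb3, Itgb4, Itgb5 and Itgb7 among the beta chains. The laminin chains Lama3, Lama5, Lamb1, Lamb2, Lamb3 and Lamc1 were detected on every array. Among collagen receptors, Itga1 and Itga10 were on all arrays and Itga2 on 14. Itga5, the fibronectin receptor chain, was on all. Itgb2, the beta chain of leukocyte integrins, was also on all 15 arrays, with log2 signals from -3.73 to -2.59. Part of the leukocyte list was detected with it, as given above, and the part of other cells in its signal was not tested.

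The chains not well above background on any array were Itga4, Itga8, Itga9 and Itgb8, and the laminin alpha chains Lama1 and Lama4. Partial detection followed the hairpins for several genes. Itga2b, the alpha chain of the platelet fibrinogen receptor, was detected on 1 of 7 control and 7 of 8 shSiva arrays. Lamc3 was on 0 control and 6 shSiva arrays. Lama2, a chain of muscle and nerve laminin, was on 1 control array, all 4 shSiva1 arrays and 0 shSiva2 arrays. Itgb6, the epithelial partner of the alpha V chain, was on all 7 LSZ2 arrays but 2 of 8 LSZ4 arrays, both with shSiva. Itga11 was on 2 arrays and was not tested. The other 24 genes passed the filter (well above background on at least 4 arrays), which was run on all 36282 genes and left 22882.

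**Figure D1:**
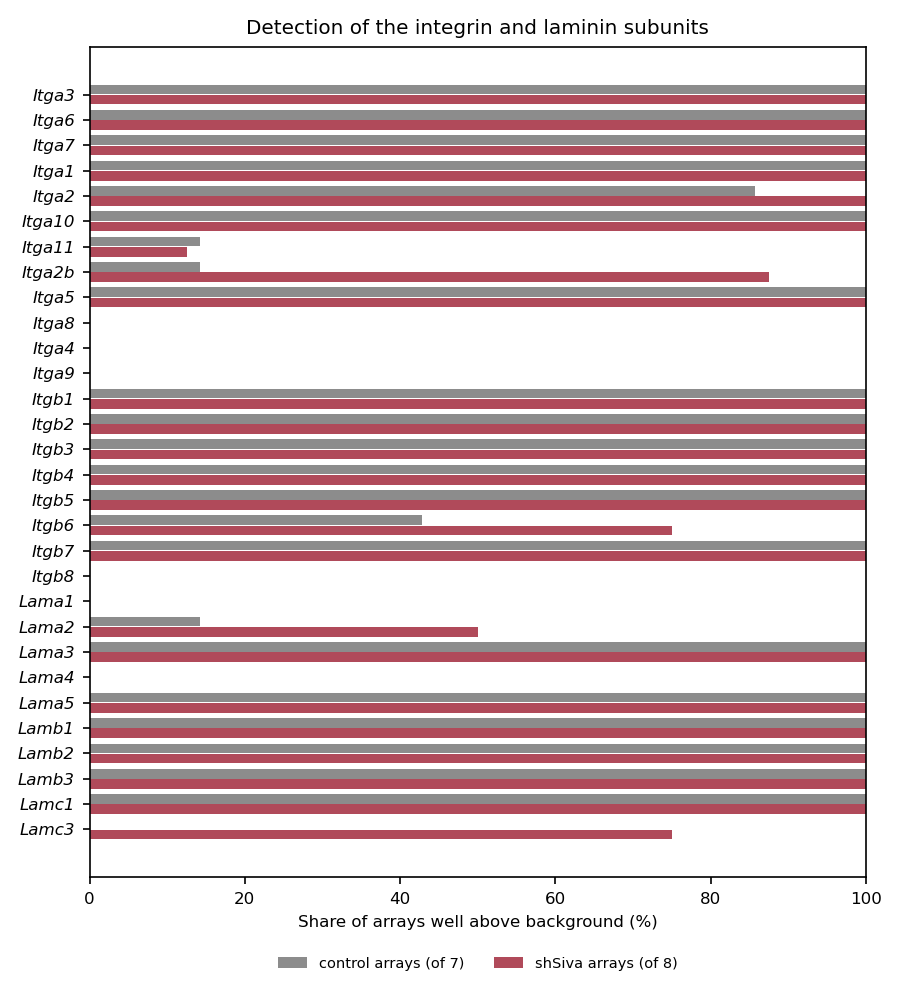
Share of arrays (percent, horizontal axis) on which each of 30 integrin and laminin subunits was well above background, for the 7 control arrays (grey) and the 8 shSiva arrays (red). Bars reach 100 for 18 genes in both arms, no bar is drawn for the 6 genes detected on no array, and Itga2b, Itgb6, Lama2 and Lamc3 have longer bars in the shSiva arrays.

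Siva1, the targeted gene, was lower with either hairpin. Its change against all control arrays was -2.94 (SE 0.26) with shSiva1 and -2.10 (SE 0.26) with shSiva2 on the log2 scale (limma, Benjamini-Hochberg adjusted p = 9.82e-07 and 6.76e-05). The difference between them, 0.84 (SE 0.29), did not pass the threshold (adjusted p = 0.0533). A gene is called here at an adjusted p under 0.05 over all 22882 genes.

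The integrin and laminin genes differed widely between the 2 Siva hairpins, a comparison made within 1 slide, 1 vector and 1 selection. Of the 24 tested genes, 15 were called between shSiva2 and shSiva1, 10 higher and 5 lower with shSiva2, which is 62.5% of them. Over all genes 19.5% were called (10.1% higher and 9.43% lower). With the test kept to genes detected on all arrays, 14 of 19 were called. The 19.5% is from the wider gene set, and the share of all genes under this filter is not given here. The median difference of the 24 was 0.62, and that of all genes 0.14. Of the 24, 10 differed by at least 2-fold, 9 of them called, as did 11.1% of all genes. Among the genes higher with shSiva2 were the muscle-type laminin receptor chain Itga7, the lymphocyte-type beta chain Itgb7, the collagen receptor chain Itga10 and the laminin chains Lamb2, Lamc1 and Lama5. Higher with shSiva1 were Itga5 and Itgb3, chains of fibronectin and vitronectin receptors, and Lamb1, Lamb3 and Lama2. The array row on the slide coincides with the hairpin, so hairpin and row cannot be told apart. Between the control hairpins, shGFP against shLacZ called 0 of the 24 genes with limma (3 at an unadjusted p under 0.05, and 0.00437% of all genes called). The control hairpins lie on the same 2 rows of their slide but also differ in vector and selection. Their comparison therefore cannot decide the part of the row, which was not tested.

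Among laminin-binding alpha chains Itga7 had the widest spread. In LSZ2, Itga7 read -0.35 with shGFP, 0.17 and 0.19 with shLacZ, -2.26 and -2.17 with shSiva1, and 0.77 and 0.49 with shSiva2. In LSZ4, Itga7 read 2.25 and 1.95 with shGFP, 1.10 and 1.25 with shLacZ, -1.25 and -0.62 with shSiva1, and 2.58 and 2.93 with shSiva2. Within each line both shSiva1 arrays lay below every control array and both shSiva2 arrays above every control array. The shSiva2 value exceeded the shSiva1 value by 3.27 (SE 0.27, adjusted p = 6.10e-07), a 9.63-fold difference. Against control, Itga7 changed by -2.39 (SE 0.24, adjusted p = 3.61e-06) with shSiva1 and by 0.87 (SE 0.24, adjusted p = 0.0254) with shSiva2. These comparisons share the 7 control arrays.

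Itga6 did not follow. Itga6 read 6.84 with shGFP, 6.85 and 6.92 with shLacZ, 6.68 and 6.73 with shSiva1, and 6.84 and 6.70 with shSiva2 in LSZ2, and 6.63 and 6.69 with shGFP, 6.95 and 6.88 with shLacZ, 6.63 and 6.62 with shSiva1, and 6.88 and 6.53 with shSiva2 in LSZ4. Its hairpin difference was 0.07 (SE 0.13), and none of the comparisons called it. Itga3 read 3.64 with shGFP, 3.58 and 3.79 with shLacZ, 3.30 and 3.46 with shSiva1, and 3.91 and 3.97 with shSiva2 in LSZ2, and 4.44 and 4.56 with shGFP, 3.45 and 4.17 with shLacZ, 2.77 and 3.55 with shSiva1, and 3.78 and 4.19 with shSiva2 in LSZ4. Its shSiva2 arrays lay above its shSiva1 arrays within each line, yet the difference of 0.69 (SE 0.25, adjusted p = 0.0686) was not called, while the change with shSiva1 against control was, at -0.66 (SE 0.22, adjusted p = 0.0405).

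The partner chain of Itga6, Itgb4, read 5.26 with shGFP, 5.42 and 5.55 with shLacZ, 4.31 and 4.80 with shSiva1, and 5.24 and 5.12 with shSiva2 in LSZ2, and 6.12 and 6.12 with shGFP, 4.89 and 5.61 with shLacZ, 4.03 and 4.83 with shSiva1, and 5.40 and 5.79 with shSiva2 in LSZ4. The shSiva1 arrays were the lowest of each line. Itgb4 changed by -1.06 (SE 0.24, adjusted p = 0.00434) with shSiva1 and by -0.17 (SE 0.24, not called) with shSiva2. Itgb1, the partner of most alpha chains, read 3.43 with shGFP, 3.54 and 3.54 with shLacZ, 4.37 and 4.14 with shSiva1, and 3.74 and 3.85 with shSiva2 in LSZ2, and 2.75 and 2.84 with shGFP, 3.96 and 3.45 with shLacZ, 4.47 and 4.13 with shSiva1, and 3.69 and 3.05 with shSiva2 in LSZ4. With shSiva1, Itgb1 was the highest on all 4 arrays and rose by 0.90 (SE 0.22, adjusted p = 0.00678). Between hairpins its probe differed by -0.70 (SE 0.24, adjusted p = 0.058), which was not called, and its second probe by -0.84 (adjusted p = 0.0121), which was.

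The other beta chains moved in both directions. Itgb7 read 2.30 with shGFP, 2.18 and 2.34 with shLacZ, 0.65 and 0.78 with shSiva1, and 2.58 and 2.19 with shSiva2 in LSZ2, and 2.41 and 2.69 with shGFP, 1.49 and 2.32 with shLacZ, -0.02 and 0.91 with shSiva1, and 2.37 and 3.08 with shSiva2 in LSZ4. All 4 shSiva1 arrays were below all other arrays, whereas shSiva2 arrays overlapped the controls. The Itgb7 difference between hairpins was 1.98 (SE 0.27, adjusted p = 7.77e-05). Itgb5, a partner of the alpha V chain, read 2.80 with shGFP, 2.96 and 3.05 with shLacZ, 2.11 and 2.45 with shSiva1, and 2.88 and 2.82 with shSiva2 in LSZ2, and 4.09 and 4.05 with shGFP, 2.86 and 3.38 with shLacZ, 2.40 and 3.01 with shSiva1, and 3.69 and 4.03 with shSiva2 in LSZ4. Both shSiva1 arrays were the lowest of LSZ2, while in LSZ4 a shLacZ array lay between them, and the hairpins differed by 0.86 (SE 0.25, adjusted p = 0.026). Itgb3 went the other way, reading 1.37 with shGFP, 1.39 and 1.57 with shLacZ, 1.01 and 1.54 with shSiva1, and 0.32 and 0.35 with shSiva2 in LSZ2, and 2.18 and 2.30 with shGFP, 1.52 and 2.11 with shLacZ, 1.52 and 1.87 with shSiva1, and 0.59 and 0.73 with shSiva2 in LSZ4. Its 4 shSiva2 arrays were below all other arrays, with a change of -1.24 (SE 0.16, adjusted p = 0.000127) against control and -0.99 (SE 0.18, adjusted p = 0.00123) against shSiva1. The second Itgb3 probe had the same sign without a call (-0.83, adjusted p = 0.181).

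Among the remaining alpha chains Itga10 stood out with shSiva2. Itga10 read -2.15 with shGFP, -2.08 and -2.19 with shLacZ, -2.21 and -2.21 with shSiva1, and -0.71 and -0.91 with shSiva2 in LSZ2, and -1.80 and -1.79 with shGFP, -1.94 and -1.72 with shLacZ, -2.10 and -1.94 with shSiva1, and -0.12 and 0.03 with shSiva2 in LSZ4. The shSiva1 and control arrays lay between -2.21 and -1.72, and the 4 shSiva2 arrays were above them all. Itga10 was 2.95-fold higher with shSiva2 than in controls, a change of 1.56 (SE 0.13, adjusted p = 2.58e-06), and its second probe gave 1.64 (adjusted p = 1.43e-06). The probes overlap for most of their length (chr3:96468377-96468436 and chr3:96468383-96468442, mm9), so the second is not an independent reading. Itga5 read -2.30 with shGFP, -2.43 and -2.22 with shLacZ, -1.70 and -1.33 with shSiva1, and -2.77 and -2.70 with shSiva2 in LSZ2, and -1.26 and -1.13 with shGFP, -2.13 and -1.43 with shLacZ, -0.83 and -0.46 with shSiva1, and -1.69 and -1.28 with shSiva2 in LSZ4. In each line the shSiva1 arrays were the highest, and shSiva2 against shSiva1 gave -1.03 (SE 0.21, adjusted p = 0.00263).

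**Figure D2:**
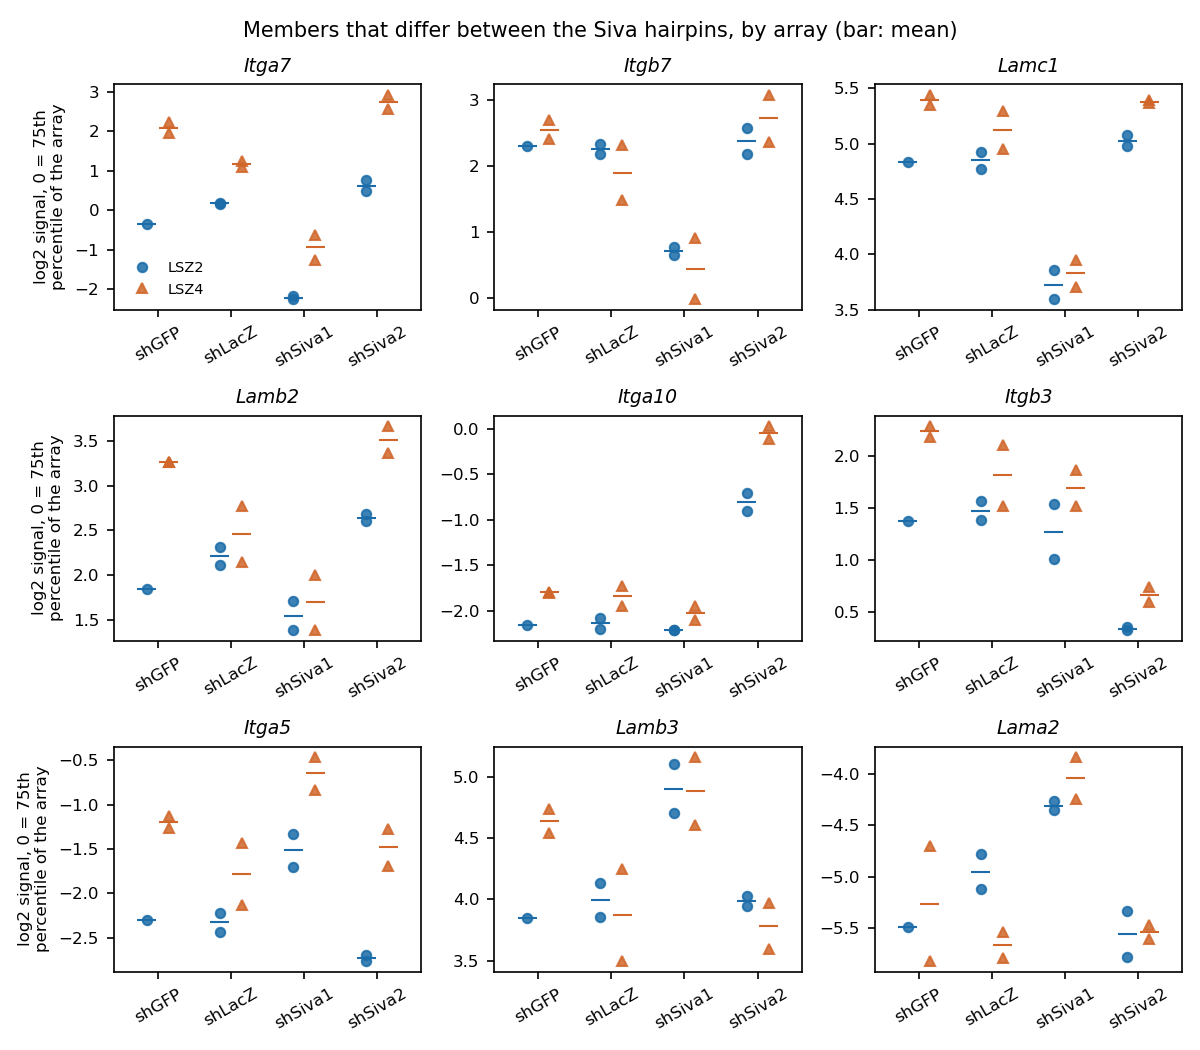
Log2 signal of 9 genes on each array (vertical axis, 0 is the 75th percentile of the array) for shGFP, shLacZ, shSiva1 and shSiva2, in LSZ2 (circles) and LSZ4 (triangles), with the mean of each group as a bar. Itga7, Itgb7, Lamc1, Lamb2 and Itga10 are higher with shSiva2 than with shSiva1 in both lines, and Itgb3, Itga5, Lamb3 and Lama2 are lower.

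Laminin chains moved in both directions. Lamb3, a beta chain of epithelial laminin, read 3.85 with shGFP, 3.86 and 4.13 with shLacZ, 4.70 and 5.10 with shSiva1, and 3.94 and 4.03 with shSiva2 in LSZ2, and 4.54 and 4.74 with shGFP, 3.50 and 4.25 with shLacZ, 4.61 and 5.16 with shSiva1, and 3.60 and 3.97 with shSiva2 in LSZ4. In each line both shSiva1 arrays exceeded both shSiva2 arrays. Lamb3 differed between hairpins by -1.01 (SE 0.25, adjusted p = 0.0086). Lama3, its alpha chain partner, read -1.57 with shGFP, -1.92 and -1.84 with shLacZ, -1.57 and -1.43 with shSiva1, and -1.34 and -1.40 with shSiva2 in LSZ2, and -1.54 and -1.26 with shGFP, -2.30 and -1.62 with shLacZ, -2.89 and -2.54 with shSiva1, and -2.30 and -1.82 with shSiva2 in LSZ4. Its hairpin difference of 0.39 (SE 0.28, adjusted p = 0.374) was not called.

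The chains of the laminin made of Lama5, Lamb1 and Lamc1 did not move together. Lamb1 read 3.77 with shGFP, 3.90 and 4.14 with shLacZ, 4.94 and 5.16 with shSiva1, and 4.32 and 4.30 with shSiva2 in LSZ2, and 4.07 and 4.29 with shGFP, 3.86 and 4.55 with shLacZ, 5.07 and 5.56 with shSiva1, and 4.61 and 4.79 with shSiva2 in LSZ4. Lamc1 read 4.83 with shGFP, 4.77 and 4.93 with shLacZ, 3.59 and 3.86 with shSiva1, and 5.08 and 4.98 with shSiva2 in LSZ2, and 5.35 and 5.44 with shGFP, 4.96 and 5.30 with shLacZ, 3.70 and 3.95 with shSiva1, and 5.37 and 5.39 with shSiva2 in LSZ4. The shSiva1 arrays were the highest of each line for Lamb1 and the lowest of all arrays for Lamc1. Against control, shSiva1 changed Lamb1 by 1.12 (SE 0.15, adjusted p = 7.95e-05) and Lamc1 by -1.28 (SE 0.13, adjusted p = 4.99e-06), and the hairpins differed by -0.68 (SE 0.17, adjusted p = 0.0108) and 1.43 (SE 0.15, adjusted p = 6.21e-06) respectively. Lama5, the alpha chain, read 5.76 with shGFP, 6.03 and 6.17 with shLacZ, 5.52 and 5.86 with shSiva1, and 6.24 and 6.22 with shSiva2 in LSZ2, and 6.28 and 6.43 with shGFP, 5.44 and 6.18 with shLacZ, 5.28 and 5.95 with shSiva1, and 6.28 and 6.73 with shSiva2 in LSZ4. It was higher with shSiva2 than with shSiva1 by 0.72 (SE 0.22, adjusted p = 0.034).

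Of the other laminin chains, Lamb2 read 1.85 with shGFP, 2.11 and 2.31 with shLacZ, 1.38 and 1.71 with shSiva1, and 2.68 and 2.60 with shSiva2 in LSZ2, and 3.26 and 3.26 with shGFP, 2.15 and 2.78 with shLacZ, 1.39 and 2.00 with shSiva1, and 3.36 and 3.67 with shSiva2 in LSZ4. All shSiva1 arrays were below all shSiva2 arrays, and the difference was 1.46 (SE 0.25, adjusted p = 0.000697). Lama2 read -5.49 with shGFP, -5.12 and -4.78 with shLacZ, -4.26 and -4.35 with shSiva1, and -5.78 and -5.33 with shSiva2 in LSZ2, and -5.82 and -4.70 with shGFP, -5.78 and -5.53 with shLacZ, -3.83 and -4.24 with shSiva1, and -5.60 and -5.46 with shSiva2 in LSZ4. Lama2 was not well above background on any shSiva2 array. With those values raised to the lowest detected level of their array, it was 1.90-fold higher with shSiva1, on the main background only. The fitted difference was -1.37 (SE 0.25, adjusted p = 0.00107). Lama2 passed the filter through shSiva1 arrays and 1 control array, so it had to differ here, and with normexp background the difference was -0.56 and not called (adjusted p = 0.257). Per-array values of Itga7, Itga10, Itgb3, Itgb5, Itgb7, Lama2 and Lamb2 are given because the hairpin comparison was seen to call them.

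**Figure D3:**
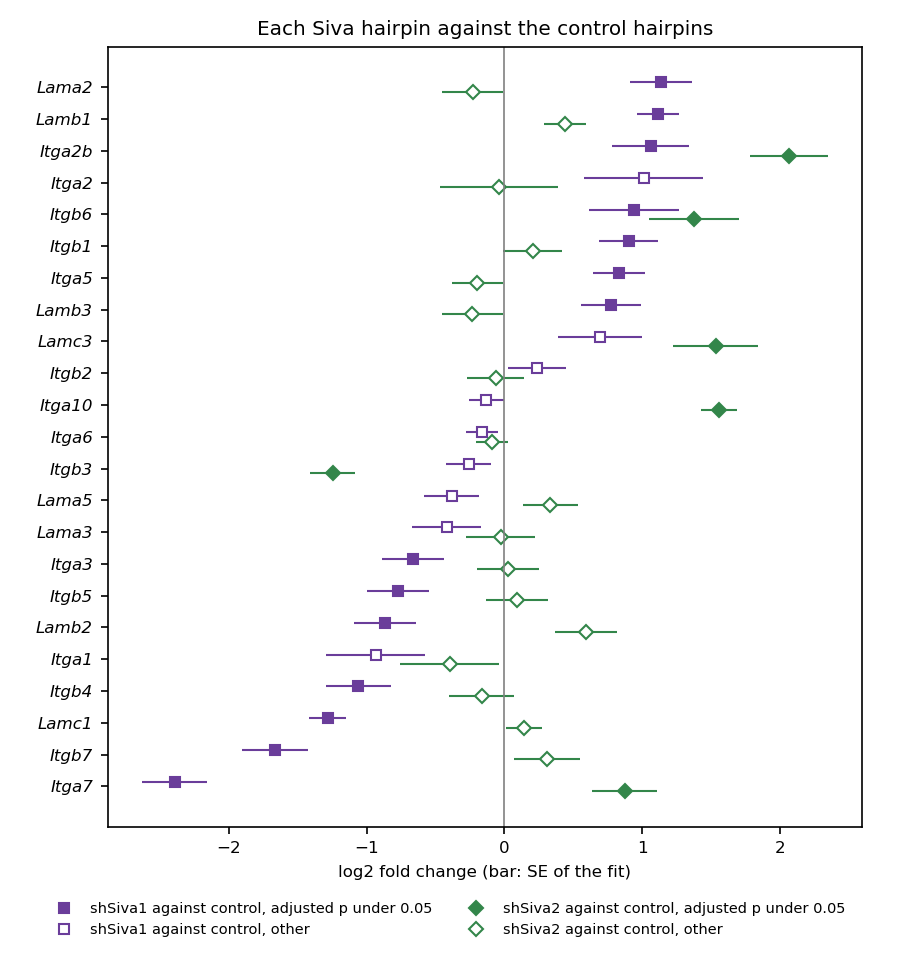
Log2 fold change of 23 of the 24 tested genes (horizontal axis, bars are the SE of the fit) with shSiva1 (squares) and shSiva2 (diamonds) against the same 7 control arrays, ordered by the shSiva1 change. Filled symbols have an adjusted p under 0.05, and Itga7 lies at -2.39 with shSiva1 and at 0.87 with shSiva2.

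Against control, shSiva1 called 15 of the 24 genes, 7 higher and 8 lower (25.9% of all genes, 10.2% higher and 15.7% lower), and shSiva2 called 6, 5 higher and 1 lower (12.3% of all genes, 6% higher and 6.29% lower). Besides those described, shSiva1 changed Lamb2 by -0.87 (SE 0.23, adjusted p = 0.0115) and Itgb7 by -1.67 (SE 0.24, adjusted p = 0.000125). With shSiva2, Itga2b, Lamc3 and Itgb6 were called higher, but these genes are dim in controls. Itga2b was well above background on 1 and Lamc3 on 0 of the 7 control arrays, and Itgb6 on 0 of 4 LSZ4 control arrays. Itga2b, called with either hairpin, and Lamc3 passed the filter through the shSiva arrays, so their calls support nothing. Lama2, among the 15 called with shSiva1, was well above background on all 4 shSiva1 arrays and 1 control array. It passed the filter through the shSiva1 arrays, so that call supports nothing either. The hairpins were also compared within each line, in 1 fit of all 15 arrays with a mean for each group. They differed for 8 of the 24 genes in LSZ2 (8.89% of all genes) and 14 in LSZ4 (15.7% of all genes). The sign was the same in both lines for 24 of 24 genes, and for 75.6% of all 22882. The difference between lines in this hairpin difference was called for 0 genes with limma (3 at an unadjusted p under 0.05; 0.166% of all genes). Within both lines, all shSiva2 arrays were above all shSiva1 arrays for 13 genes (21.9% of all genes) and below them for 7 (13.2%). The 7 include Lama2, which passed the filter through the shSiva1 arrays. Of the 15 calls, 4 were lost when single shSiva arrays were left out. The Itga2b call was lost without any 1 of 6 arrays, every shSiva array of LSZ4 and both LSZ2 shSiva1 arrays, with adjusted p from 0.0619 to 0.117. Those of Itgb4, Itgb5 and Lama5 were lost without 4, 4 and 5 arrays, among them LSZ2 shSiva1 replicate 1, LSZ4 shSiva1 replicate 1 and LSZ4 shSiva2 replicate 2 for all 3 genes. The rest were LSZ2 shSiva2 replicate 1 for Itgb4, LSZ4 shSiva2 replicate 1 for Itgb5 and both LSZ2 shSiva2 replicates for Lama5, and the adjusted p ran from 0.0549 to 0.12.

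Marker levels and array brightness were compared between the hairpins, and the fibroblast and lung epithelial sums did not overlap. The summed linear level of the 6 fibroblast markers, relative to the 75th percentile, was 0.132 to 0.246 on shSiva1 arrays and 0.0788 to 0.128 on shSiva2 arrays, with Pdgfra, Pdgfrb, Dcn and Lum well above background on none. That of the 5 lung epithelial markers was 0.0581 to 0.107 with shSiva1 and 0.128 to 0.529 with shSiva2. Of those 5, Nkx2-1 and Sftpc were well above background on none. Sftpb reached -1.19 on the log2 scale, and no other marker of that list exceeded -4.28. The sums of the 6 epithelial markers overlapped (1194 to 1891 and 1332 to 2439). The leukocyte sums overlapped too (5.76 to 9.72 and 4.77 to 9.77), as did the endothelial sums (3.42 to 7.15 and 4.43 to 9.76). The 75th percentile was 586 to 964 intensity units on shSiva1 arrays and 499 to 901 on shSiva2 arrays, which also overlap. With array brightness as a covariate, an alternative chosen after seeing the data, 18 of the 24 genes were called between hairpins. The share of all genes called in that fit is not given here, so nothing is concluded from the 18. The part of the marker genes in the hairpin difference was not tested.

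Promoter windows of 4 called genes, 2 higher and 2 lower with shSiva2, are shown to compare their sequence. The windows are the 250 bases before the RefSeq start (GRCm38.p6), for Itga10 at chr3:96645334-96645583, plus strand, Itgb7 at chr15:102231936-102232185, minus strand, Itga5 at chr15:103366792-103367041, minus strand and Lamb1 at chr12:31265043-31265292, plus strand. Capitals mark the GC box, GGGCGG on either strand, the site of Sp1-type factors.
Itga10: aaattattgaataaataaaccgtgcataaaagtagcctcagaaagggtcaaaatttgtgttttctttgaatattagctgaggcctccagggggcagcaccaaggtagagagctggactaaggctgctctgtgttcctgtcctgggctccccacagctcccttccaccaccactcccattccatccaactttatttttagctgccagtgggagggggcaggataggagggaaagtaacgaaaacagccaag
Itgb7: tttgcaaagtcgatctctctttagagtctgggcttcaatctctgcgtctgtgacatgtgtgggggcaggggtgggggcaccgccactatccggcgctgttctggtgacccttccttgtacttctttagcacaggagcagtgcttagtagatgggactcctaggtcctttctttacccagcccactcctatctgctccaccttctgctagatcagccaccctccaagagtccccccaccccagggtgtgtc
Itga5: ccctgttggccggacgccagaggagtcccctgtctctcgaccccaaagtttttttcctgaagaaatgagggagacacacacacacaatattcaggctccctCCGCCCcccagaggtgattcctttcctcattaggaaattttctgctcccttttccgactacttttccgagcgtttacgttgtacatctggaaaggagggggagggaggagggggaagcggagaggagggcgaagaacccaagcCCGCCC
Lamb1: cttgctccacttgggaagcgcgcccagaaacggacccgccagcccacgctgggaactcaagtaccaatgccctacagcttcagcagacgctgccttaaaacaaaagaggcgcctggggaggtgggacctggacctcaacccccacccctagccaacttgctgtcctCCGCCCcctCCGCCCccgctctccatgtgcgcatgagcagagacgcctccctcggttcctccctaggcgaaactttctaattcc
The Itga5 and Lamb1 windows hold 2 GC boxes each, and those of Itga10 and Itgb7 hold 0. The windows of Itgb5 and Lama5, higher with shSiva2, hold 3 and 4, and those of Lama2 and Lamb3, lower with shSiva2, hold 0. A window was given for 20 of the 31 genes, 23 windows in all, and 8 of these hold a GC box, against 32.7% of 32851 windows. The TATA box (TATAAA, 12.4% of all windows), the AP-1 site (TGANTCA, 6.75%) and the E-box (CACGTG, 6.02%), each on both strands, were in 0 of the 23.

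When both Siva hairpins were pooled against both control hairpins, 5 of the 24 genes were called (9.99% of all genes, 4.3% higher and 5.69% lower), Itga2b, Itgb6, Lamb1 and Lamc3 higher and Itgb3 lower. The median change was -0.07, and that of all genes -0.12. By role, 1 of 2 RGD-binding alpha chains, 1 of 3 laminin beta chains and 1 of 3 laminin gamma chains rose, 1 of 7 beta chains rose and 1 fell, and 0 of 3 laminin-binding and 0 of 3 collagen-binding alpha chains were called. With 8 group means in place of arrays all 5 calls were lost. A random block for each line and hairpin ended those of Itgb3, Itgb6 and Lamc3, and normexp background those of Itga2b, Itgb6 and Lamc3. The Itgb6 call was lost in 6 settings, among them shLacZ controls only (adjusted p = 0.0578), and that of Itgb3 in 8. Against shGFP arrays alone 11 were called (20.5% of all genes) and against shLacZ arrays alone 7 (11.2%). Without LSZ2 shGFP replicate 1, LSZ2 shLacZ replicate 1 or LSZ4 shLacZ replicate 2, 3 genes were called each time. The effect of Siva hairpins differed between lines for 0 genes with limma (1 of the 24 at an unadjusted p under 0.05; 0% of all genes called).

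Itga2b read -5.49 with shGFP, -4.94 and -5.84 with shLacZ, -4.52 and -4.65 with shSiva1, and -3.95 and -3.96 with shSiva2 in LSZ2, and -6.07 and -5.25 with shGFP, -5.93 and -6.89 with shLacZ, -4.71 and -4.92 with shSiva1, and -3.39 and -3.47 with shSiva2 in LSZ4. Its shSiva arrays were above the control arrays of the same line, and the pooled change was 1.56 (SE 0.30, adjusted p = 0.00384). Itga2b passed the filter through the shSiva arrays, where it was high, so its call supports nothing. The change was 0.57 (adjusted p = 0.207) with normexp background. In LSZ4, Itga2b was above background on 3 of 4 shSiva arrays and on 0 of 4 control arrays. With those control values raised to the lowest detected level of their array, it was 1.58-fold higher with shSiva. That value holds for the main background only and supports nothing either. Itgb6 read -4.12 with shGFP, -3.56 and -3.54 with shLacZ, -3.04 and -3.31 with shSiva1, and -3.15 and -3.13 with shSiva2 in LSZ2, and -6.38 and -6.68 with shGFP, -7.29 and -5.79 with shLacZ, -5.18 and -5.40 with shSiva1, and -3.82 and -5.10 with shSiva2 in LSZ4. Here too no shSiva array overlapped the controls of its line, and the pooled change was 1.16 (SE 0.28, adjusted p = 0.0154), although the values in LSZ4 controls were not well above background. The second Itgb6 probe, above background on 0 arrays, gave -0.04.

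Lamc3, a gamma chain, read -5.98 with shGFP, -5.77 and -5.48 with shLacZ, -5.16 and -4.49 with shSiva1, and -4.10 and -3.97 with shSiva2 in LSZ2, and -4.59 and -5.44 with shGFP, -6.56 and -5.73 with shLacZ, -4.90 and -5.28 with shSiva1, and -4.76 and -3.63 with shSiva2 in LSZ4. Lamc3 was detected in none of the controls and entered the test only through shSiva arrays, so it had to differ, and its call supports nothing. With control values raised to the lowest detected level of their array, the Lamc3 shSiva level was 1.47-fold the control level, on the main background only. The fitted change was 1.12 (SE 0.30, adjusted p = 0.0257), and with normexp background it was 0.42 and not called. Without LSZ2 shGFP replicate 1 the adjusted p was 0.0629, without LSZ2 shLacZ replicate 1 0.0536 and without LSZ4 shLacZ replicate 2 0.0521. Lamb1, with the values above, rose by 0.78 (SE 0.18, adjusted p = 0.0123) and had no overlap between arms in either line. Non-overlap in both lines with shSiva above control held for 3 genes (Itga2b, Itgb6 and Lamb1; 2.5% of all genes) and with shSiva below for 0 (2.05%). Of these, Itga2b passed the filter through the shSiva arrays, and Itgb6 was not well above background on any LSZ4 control array. Nothing is therefore concluded from the count of 3. Itgb3 fell by 0.75 (SE 0.23, adjusted p = 0.0487), and the call was lost without any 1 of 12 of the 15 arrays, with adjusted p from 0.0526 to 0.0976. By line, from 1 fit of the 4 line and arm means, 0 of the 24 genes were called in LSZ2 with limma. There, 4 had an unadjusted p under 0.05, and 0.94% of all genes were called. In LSZ4, 2 were called (4.57% of all genes), Itga2b at 1.92 (SE 0.40, adjusted p = 0.0136) and Itgb6 at 1.66 (SE 0.34, adjusted p = 0.0137). Without LSZ4 shLacZ replicate 1, the count in LSZ4 was 5. Neither Itga2b nor Itgb6 was well above background on any LSZ4 control array. With those control values raised to the lowest detected level of their array, the Itgb6 change in LSZ4 was -0.10, so a rise is not assured.

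A pair of collagen receptor chains, Itga1 and Itga2, was lower in LSZ4 than in LSZ2, as was Itgb6, and Itga5 was higher. Between LSZ4 and LSZ2, 4 of the 24 genes were called, 1 higher and 3 lower (21.7% of all genes, 14.6% higher and 7.14% lower), and the median difference was 0.09 against 0.23 for all genes. Without LSZ4 shSiva1 replicate 1 the count was 7. Itga1 read -0.97 with shGFP, -0.82 and -1.23 with shLacZ, -2.19 and -2.68 with shSiva1, and -1.72 and -1.52 with shSiva2 in LSZ2, and -4.20 and -4.52 with shGFP, -2.43 and -3.51 with shLacZ, -3.63 and -4.68 with shSiva1, and -3.34 and -4.45 with shSiva2 in LSZ4. Itga2 read -1.32 with shGFP, -1.22 and -1.42 with shLacZ, -0.33 and -0.84 with shSiva1, and -1.41 and -1.29 with shSiva2 in LSZ2, and -4.24 and -4.79 with shGFP, -2.82 and -1.68 with shLacZ, -1.78 and -2.45 with shSiva1, and -3.25 and -3.65 with shSiva2 in LSZ4. Every LSZ4 array was below every LSZ2 array for Itga2, the only such gene of the 24 (1.08% of all genes), and 0 had every LSZ4 array above (0.931% of all genes), while for Itga1 LSZ4 shLacZ replicate 1 lay above an LSZ2 shSiva1 array.

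Itga1 was lower in LSZ4 by -2.30 (SE 0.31, adjusted p = 0.000191), a 4.94-fold difference, and Itga2 by -1.93 (SE 0.40, adjusted p = 0.00663), a 3.81-fold difference. With array brightness as a covariate, Itga2 differed by -0.99 and was not called (adjusted p = 0.277), nor was it with 8 group means (adjusted p = 0.0874). The second Itga1 probe gave -1.29 (adjusted p = 0.00684). Itgb6 was lower in LSZ4 by -2.21 (SE 0.28, adjusted p = 0.000104), but passed the filter through LSZ2 arrays, and with normexp background the difference was -0.13 and not called (adjusted p = 0.66). In LSZ4 control arrays Itgb6 was not well above background. With those values raised to the lowest detected level of their array, Itgb6 was 2.05-fold higher in LSZ2 control arrays. That value holds for the main background only and has no error attached, so it supports nothing. Itga5 was higher in LSZ4 by 0.95 (SE 0.25, adjusted p = 0.0219), or 0.72 beyond the median of all genes. The Itga5 call was lost with a random block for each line and hairpin, with 8 group means, with brightness as a covariate and without both LSZ4 shGFP arrays (adjusted p from 0.0582 to 0.257). Itga7 was 1.67 higher without passing (SE 0.64, adjusted p = 0.0628). Itga1 and Itgb6 were called in the control arrays alone (5.98% of all genes) and in the shSiva arrays alone (1.66% of all genes), at -2.66 and -2.79 in the former and -2.00 and -1.72 in the latter. The control count was 5 without LSZ4 shLacZ replicate 1. The shSiva count was 0 without LSZ2 shSiva1 replicate 1, LSZ4 shSiva1 replicate 2 or either LSZ2 shSiva2 replicate, and 1 without LSZ4 shSiva2 replicate 2. Without LSZ2 shLacZ replicate 1 the Itga5 line difference had an adjusted p of 0.0546.

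**Figure D4:**
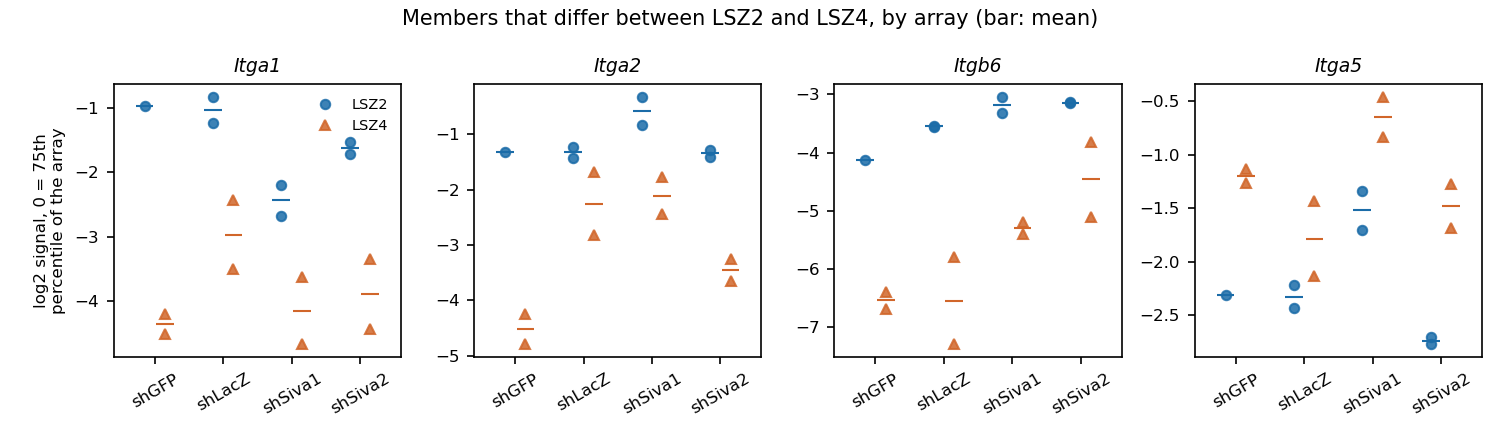
Log2 signal on each array (vertical axis, 0 is the 75th percentile of the array) of the 4 genes called between the lines, for shGFP, shLacZ, shSiva1 and shSiva2, in LSZ2 (circles) and LSZ4 (triangles), with group means as bars. The group means of Itga1, Itga2 and Itgb6 are lower in LSZ4 with each hairpin and those of Itga5 are higher.

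Itga1 and Itga2 are neighbours. Their probes lie 130.0 kb apart on chromosome 13 (mm9). The 10 other tested genes with probes within 1 Mb of them had a median difference between lines of -0.17, and 3 were called higher and 1 lower.

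Lama3 has a pair of probes that disagreed. The one used here differed between lines by -0.47 (SE 0.22, adjusted p = 0.102), and the other, detected on 8 arrays, by -2.79 (adjusted p = 0.000327). The alpha V chain, Itgav, is named by letter and so lies outside the family as chosen. It changed by 0.19 (SE 0.26) in the pooled comparison and by 0.61 (SE 0.32) between hairpins, neither called. Of the 7 letter-named subunits, 3 were tested, and 0 were called in the pooled, line and hairpin comparisons.

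Related genes were counted from lists. Of 32 genes of the adhesion machinery that links integrin tails to actin, 3 rose and 3 fell in the pooled comparison (9.99% of all genes called), with a median of -0.04, and 6 were higher and 5 lower with shSiva2 than with shSiva1 (19.5% of all genes), with a median of 0.16. Tns3, a tensin that binds integrin beta tails, fell by 0.80 (SE 0.13) in the pooled comparison. Rsu1, a partner of the ILK complex, rose by 0.79 (SE 0.15), and Ptk2b, a kinase related to FAK, by 0.87 (SE 0.16). Of 6 tested hemidesmosome genes and other laminin receptors, 0 were called with limma in the pooled comparison (median -0.07), and between hairpins the laminin receptor Bcam was higher with shSiva2 by 1.24 (SE 0.26). In the line comparison, 7 of the 32 adhesion genes were higher and 3 lower (14.6% and 7.14% of all genes), with Lims2 at 1.91, Tln2 at 0.84 and Tns1 at 1.65. Of the 6 hemidesmosome genes, Plec and Rpsa were higher in LSZ4, at 0.66 and 0.62, and Dst lower, at -1.03.

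Of 13 tested basement membrane partners, 2 rose in the pooled comparison (4.3% of all genes), Ntn4 by 1.46 (SE 0.19) and Col7a1, the anchoring fibril collagen, by 1.89 (SE 0.52). Col7a1 was also lower with shSiva2 than with shSiva1, by -2.66 (SE 0.21), as was Nid1, which joins laminin to collagen IV, by -1.69 (SE 0.15), while Col4a1 and Col4a2 were higher, by 1.30 and 1.15. Between lines, 3 of the 13 were higher in LSZ4 and 2 lower (14.6% and 7.14% of all genes), with Agrn at -1.01, Col4a5 at -0.63 and Col4a2 at 1.06. Of 12 other integrin ligands, 3 rose in the pooled comparison (4.3% of all genes), Thbs1 by 4.01, Vcam1 by 2.30 and Fn1, the ligand of the Itga5 receptor, by 2.40 (SE 0.39). Fn1 fell by 1.88 from shSiva1 to shSiva2 (SE 0.22), the direction of Itga5. Col1a2 was higher in LSZ4 by 0.71 (SE 0.19). Genes of these lists named for the hairpin comparison were chosen after their values were seen.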

How the data were processed

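RNA of 15 samples was hybridised to Agilent 1-colour mouse arrays. Per the file headers, the authors' scanner files hold spot intensity from Feature Extraction 10.7.3.1, with probe positions on mm9, and the processed signal is background-subtracted. The series' deposited value table holds the authors' log2 values of the same arrays, was used only as an alternative, and its normalization is not given in the sources used here. Control spots and outlier-flagged spots were left out, spots of a probe averaged, and log2 of the processed signal scaled by subtracting each array's 75th percentile. Probes were named by gene symbol, updated by accession for 26582 of 55681 probes. The test took genes with at least 4 arrays well above background and no more than 3 missing values. The main comparisons used a linear model of line plus hairpin or arm (limma 3.58.1, R 4.3.3). Those within a line or an arm, and differences of an effect between lines, used the means of each line and arm or of each group. Every such fit held all 15 arrays. Benjamini-Hochberg adjustment was over 22882 genes, with a threshold of 0.05. A log2 fold change is a difference of these values. No spot was saturated, and 49.0 to 60.6% stood well above background; precision is limited by the number of arrays. The scripts were tested on simulated data. Promoter windows came from RefSeq.

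The members and lists were chosen with earlier results of these data known. Every subunit could be named. Values on every array were given for those called in the pooled or line comparison and for the epithelial laminins and their receptors, and for others called between the hairpins, named in the text. The alternatives were other scalings, backgrounds, filters, probe rules, blocks and control sets, and each array left out. 1 subunit and 1 marker gene are included in the counts and are not reported here.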

Additional observations from a re-analysis of the deposited data

Results flagged for a closer look

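For each tested gene, the LSZ4 controls and the shSiva arrays of each line were checked for an array far from the others. Among these 72 groups of 4 arrays, 0 had one, where chance alone gives about 1 in 20. Controls of LSZ2 were not checked. Each group joins 2 arrays of each of 2 hairpins, so a hairpin difference can hide an outlying array, and nothing is concluded from the 0.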

How the results depend on the processing

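Of the 24 genes, between 11 and 18 were called between shSiva2 and shSiva1 under every alternative run, 11 with a random block for each line and hairpin and 18 with array brightness as a covariate. For this comparison the share of all genes called under each alternative is not given here. The pooled count of 5 was 2 with normexp background, with a filter on all arrays and with the random block, 3 with the mean of all probes, 0 with 8 group means, 11 with shGFP controls only and 8 with brightness as a covariate. LSZ4 against LSZ2 (4) gave 8 without a filter and 2 with 8 group means. With normexp, the filter on all arrays and the random block, shSiva in LSZ4 (2) gave 0 each time, and the line difference in shSiva arrays (2) gave 0, 1 and 0. The line difference in control arrays (2) gave 1, and shSiva2 against control (6) gave 3, with normexp and with that filter. The mean of all probes gave 1 for shSiva in LSZ2 (0). With each array left out, counts ran from 3 to 6 (pooled), 3 to 7 (lines), 0 to 0 (shSiva in LSZ2, the line by shSiva difference, and shGFP against shLacZ), 2 to 5 (shSiva in LSZ4), 2 to 5 and 0 to 3 (lines in control and shSiva arrays), 11 to 16 (shSiva1), 4 to 6 (shSiva2) and 11 to 17 (between hairpins). Same-numbered arrays deviated together in 14 of 21 pairs of groups (correlation over 0.1; range -0.21 to 0.73, median 0.23), not in all, so the numbers were not taken to pair samples. With the replicate block the counts were 5 pooled, 4 between lines, 16 with shSiva1, 7 with shSiva2 and 17 between hairpins, and none moved by over 1.5 times. The filter on all arrays tested 19 genes in place of 24, and the cause of the other moves was not tested. No direction reversed for the 24 calls of the pooled, line and hairpin comparisons; other named calls were not rerun singly. Over all genes, the pooled count of 2285 was 809 with normexp, 962 with the random block, 292 with 8 means, 4692 with shGFP only and 6688 with brightness, and the line count of 4975 was 2030 with normexp, 1053 with the random block, 451 with 8 means, 973 with brightness and 8742 without a filter. Genes dim on these arrays (Itga2b, Itgb6, Lama2, Lamc3) changed by over 1.5 times with normexp: the Itgb6 line difference was -0.13, and the Itga2b difference between hairpins 0.13.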
